A study of Bos taurus with 4 samples.

Results

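The miR-30 family of microRNAs was followed in small RNA libraries of bovine oocytes at the germinal vesicle (GV) stage. Its members were taken as all reads whose name in the deposited annotation, after removal of the bracketed note, the arm and the copy number, was bovine miR-30a, miR-30b, miR-30c, miR-30d, miR-30e or miR-30f. These 6 members were among 502 bovine microRNAs named in the files, and among 38420 names of any kind. They held 454 distinct sequences and 3404 reads over the 4 libraries. RNA brought down by an antibody against Tdrkh (TDRKH IP, 2 libraries) was set against RNA of GV stage oocytes with no antibody (input, 2 libraries). All 4 libraries came from Bos taurus oocytes of the same stage, and no further treatment, age or genotype is given in the labels. No library from a control antibody was analysed here, and the labels do not say whether the libraries of a group had separate oocytes as source. The p-values thus reflect the spread between these libraries alone, which may be technical.

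MicroRNAs are short RNAs cut from a hairpin precursor. One strand, from the 5' side (5p) or the 3' side (3p) of the hairpin, is usually kept in an Argonaute protein of the AGO clade and pairs with messenger RNAs through its seed, bases 2 to 8. In the miR-30 family the 5p strand is the usual guide strand, and members with the same seed are expected to share many targets. TDRKH is a Tudor-domain protein of mitochondria that binds PIWI proteins, the Argonaute clade that carries PIWI-interacting RNAs (piRNAs) in germ cells.

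The forms of the 5p strand that the annotation listed without a note are shown because every result on naming, ends and mismatches is read against them. They are given 5' to 3' as DNA letters, as in the deposited files, and capitals mark the seed.
miR-30a: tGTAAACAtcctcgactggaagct
miR-30b: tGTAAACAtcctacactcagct
miR-30c: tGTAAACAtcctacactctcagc
miR-30d: tGTAAACAtccccgactggaagct
miR-30e: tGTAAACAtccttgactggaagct
miR-30f: tGTAAACAccctacactctcagct
All 6 shared the seed GTAAACA. Counted from 1 at the 5' end, miR-30a and miR-30d differed by T12C, miR-30a and miR-30e by C13T, and miR-30c and miR-30f by T9C over the 23 bases that both have. The listed lengths were 24 nt for miR-30a, miR-30d, miR-30e and miR-30f, 23 nt for miR-30c and 22 nt for miR-30b. By the RefSeq gene table of assembly ARS-UCD2.0, used for neighbourhood only, MIR30B and MIR30D had 0 other genes between them, as had MIR30C and MIR30E. MIR30A and MIR30F lay on 1 chromosome with 1 gene between them.

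The libraries held 11138905 and 11060320 listed reads for TDRKH IP 1 and 2, against 1079364 and 1354003 for input 1 and 2, all of 18 to 36 nt. Reads of piRNA clusters made up 96.9% and 96.8% of the TDRKH IP reads, against 88.8% and 87.8% of the input reads. Bovine microRNAs made up 0.0603% and 0.0735% of the TDRKH IP reads, against 1.77% and 1.82% of the input reads. Levels below are in RPM, the reads of a name scaled to the listed reads of its library, and 3 reads correspond to 0.269 and 0.271 RPM in the TDRKH IPs, against 2.78 and 2.22 RPM in the inputs. Among marker microRNAs, the oocyte microRNA miR-202 averaged 7.53 ± 3.54 RPM in the TDRKH IP and 218 ± 6.52 RPM in the input (SD, n = 2 each). Of 7 cumulus and granulosa markers, 6 were named in the files (miR-212 was not), and they summed to 1.26 and 2.80 RPM in the TDRKH IPs, against 236 and 285 RPM in the inputs. The liver marker miR-122 was at 1.71 and 2.35 RPM in the TDRKH IPs, against 435 and 335 RPM in the inputs. None of the 3 erythroid markers was named, and the endothelial miR-126 had at most 1 read in any library. The sums for leukocyte, epithelial and smooth muscle markers lay between 0.271 and 3.71 RPM in the TDRKH IPs, against 49.5 to 87.1 RPM in the inputs. They cover the named markers only: 3 of 5 for leukocytes (not miR-155 and miR-223), 5 of 5 for epithelium and 3 of 4 for smooth muscle (not miR-133a). The part of such other cells in the miR-30 levels was not tested.

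As a part of all listed reads, the whole family was lower in the TDRKH IP. Together the members reached 12.5 and 16.1 RPM (139 and 178 reads) in the TDRKH IPs, against 1223 and 1305 RPM (1320 and 1767 reads) in the inputs. The means were 14.3 ± 2.56 RPM in the TDRKH IP and 1264 ± 58.0 RPM in the input (SD, n = 2 each), a level 88.5 times as high in the input. The log2 change of the family sum was -6.46 ± 0.11 (SE, TDRKH IP over input; adjusted p = 1.59e-08 by edgeR's quasi-likelihood test with Benjamini-Hochberg adjustment).

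By the names in the files, all 6 members were lower in the TDRKH IP and no TDRKH IP value overlapped an input value. How many of all names had no overlap was not counted, so the lack of overlap sets miR-30 apart from nothing. The filter of the fit lay at 1.61 RPM in 2 libraries, which only miR-30d reached in both TDRKH IPs, so the other 5 entered with the help of the inputs and their count does not support the direction. Of all names tested, 57.8% were lower in the TDRKH IP at an adjusted p under 0.05, and of the bovine microRNAs in that fit 85.5% (136 of 159), so 6 of 6 members stands against a background that was largely lower as well. Over all names 895 were higher and 3094 lower in the TDRKH IP, but 1817 and 2513 with TMM factors and 1805 and 1326 with DESeq2, and the members were lower in each of these fits. The median log2 change was -5.63 over the 6 members, -5.67 over the 159 bovine microRNAs and -2.38 over all names.

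miR-30d was the dominant member in both groups. It had 8.39 and 10.8 RPM in the TDRKH IPs, against 986 and 1073 RPM in the inputs. It ranked 17 and 19 among the 502 bovine microRNAs in the TDRKH IPs, against 4 and 3 in the inputs. Its log2 change was -6.74 ± 0.11 (adjusted p = 1.44e-08, edgeR). miR-30e came next, with 1.57 and 2.03 RPM in the TDRKH IPs, against 90.8 and 81.6 RPM in the inputs, and changed by -5.56 ± 0.20 (log2). miR-30a had 0.898 and 1.08 RPM in the TDRKH IPs, against 42.2 and 51.0 RPM in the inputs, and changed by -5.54 ± 0.28. These 3 members carry the same 3' part and differ from each other at bases 12 and 13 only.

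The other 3 members were rarer. miR-30b had 0.898 and 0.995 RPM in the TDRKH IPs, against 25.5 and 26.6 RPM in the inputs, the smallest change of the family by name at -4.77 ± 0.31 (log2; adjusted p = 1.02e-05, edgeR). miR-30c had 2 and 3 reads in the TDRKH IPs, against 42 and 46 in the inputs, with the largest change by name at -7.21 ± 0.36. miR-30f had 0.539 and 0.904 RPM in the TDRKH IPs, against 39.4 and 38.4 RPM in the inputs, and changed by -5.71 ± 0.32. In the inputs the order by mean level was miR-30d, miR-30e, miR-30a, miR-30f, miR-30c and miR-30b, and the values of miR-30f and miR-30c overlapped. In the TDRKH IPs it was miR-30d, miR-30e, miR-30a, miR-30b, miR-30f and miR-30c, and the values of miR-30a, miR-30b and miR-30f overlapped or tied with each other.

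**Figure D1:**
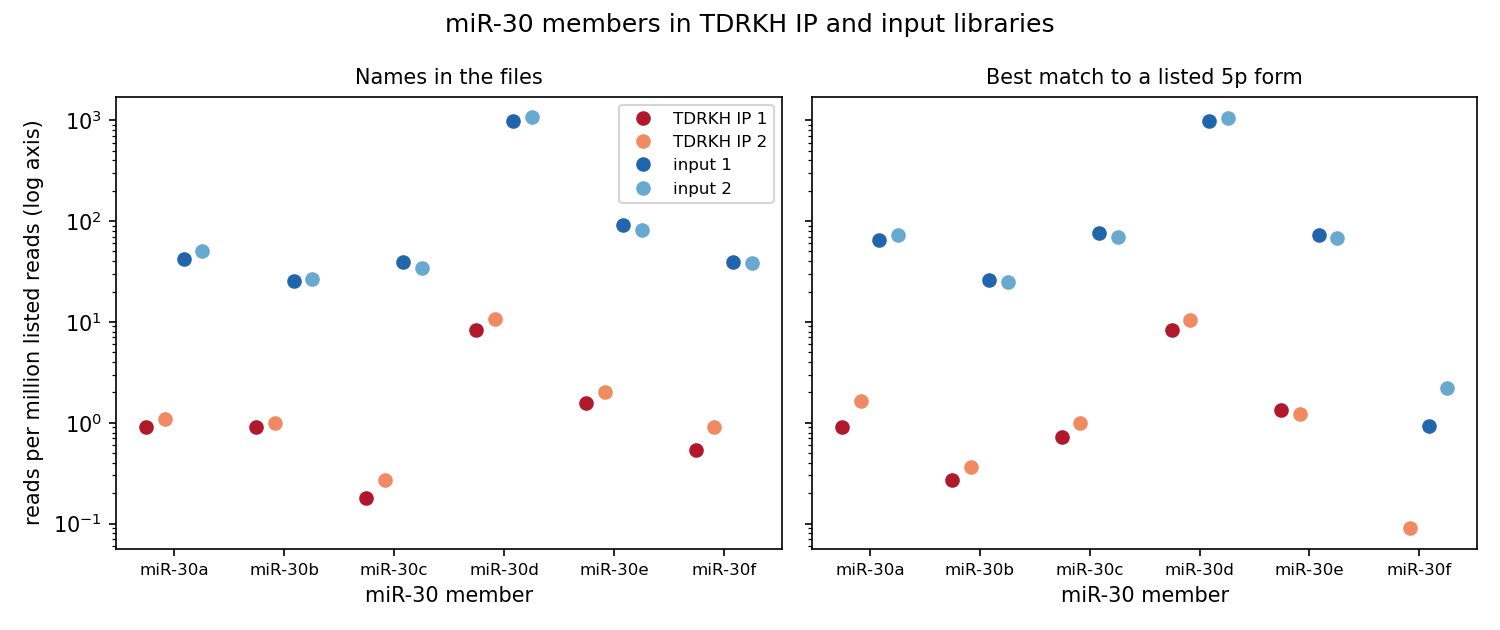
RPM (log axis) of the 6 miR-30 members in the 2 TDRKH IP and 2 input libraries, one point per library, by the names in the files (left) and by best match to a listed 5p form (right). In the right panel miR-30f of TDRKH IP 1 has 0 reads and no point, miR-30b is lower and miR-30c higher in the TDRKH IPs than on the left, and every TDRKH IP point lies below the input points of its member.

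The names did not always follow the sequence. The annotation gave a "-3p" name to forms of the 5p strand that were not identical to the listed one: by name 47.5% and 48.9% of miR-30 reads were 3p in the TDRKH IPs, against 68.4% and 56.6% in the inputs, but 84.8% and 83.9% of those reads in the TDRKH IPs (56 of 66 and 73 of 87), against 894 of 903 and 990 of 1001 in the inputs, could be placed on a listed 5p form. Placement meant an ungapped match over at least 15 nt with at most 2 mismatches and a shift of at most 6 nt. Of all miR-30 reads, 92.8% and 92.1% in the TDRKH IPs, against 99.3% and 99.4% in the inputs, were 5p reads by this measure. Of the 12 arm names, 11 could be tested and all 11 were lower, where 58.3% of all listed names were. Of these 11, 2 reached the filter's 1.61 RPM in both TDRKH IPs and the other 9 entered through the inputs, so this count does not support the direction. miR-30d-3p had 3.73 and 4.48 RPM in the TDRKH IPs, against 668 and 607 RPM in the inputs (log2 change -7.25 ± 0.11). The names could also change the member: 9 sequences that fit miR-30a without a mismatch were named both miR-30e-3p and miR-30d-3p, with 1 and 6 reads in the TDRKH IPs, against 24 and 29 in the inputs. The name miR-30d, which holds the exact form only, had 4.67 and 6.33 RPM in the TDRKH IPs, against 319 and 466 RPM in the inputs (-6.16 ± 0.22).

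Among the other arm names the changes (log2) were -5.17 ± 0.40 for miR-30a-5p and -6.64 ± 0.59 for miR-30a-3p. They were -5.79 ± 0.54 for miR-30b-5p and -4.27 ± 0.37 for miR-30b-3p. The exact miR-30c form changed by -7.09 ± 0.85 and miR-30c-3p by -7.10 ± 0.49. The pair of miR-30e-5p and miR-30e-3p changed by -5.30 ± 0.32 and -5.73 ± 0.32, and miR-30f-3p by -5.69 ± 0.32. The exact miR-30f form had 0 and 0 reads in the TDRKH IPs, against 0 and 1 in the inputs, and was not tested.

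Nearly all reads named miR-30f were closer to miR-30c by their bases, 6 of 6 and 9 of 10 in the TDRKH IPs, against 42 of 42.5 and 49 of 52 in the inputs, where reads with several names count in part. The most frequent sequence with that name is shown beside the listed miR-30c and miR-30f forms above. It equals the listed miR-30c form with 1 further base at its 3' end, and its note records a mismatch to miR-30f.
named miR-30f-3p: tGTAAACAtcctacactctcagct
This sequence had 5 and 7 reads in the TDRKH IPs, against 40 and 42 in the inputs. When each read was given to the listed form with the fewest mismatches (best match, a choice made after seeing the data), miR-30f kept 0 and 1 reads in the TDRKH IPs, against 1 and 3 in the inputs. miR-30c then had 8 and 11 reads in the TDRKH IPs, against 83 and 95 in the inputs, or 0.718 and 0.995 RPM against 76.9 and 70.2 RPM. Its log2 change became -6.39 ± 0.24.

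The value of miR-30b also rested on 1 sequence. An 18-nt read named miR-30b-3p with 1 mismatch, placed on no 5p form, had 7 and 7 reads in the TDRKH IPs, against 0 and 2 in the inputs. It is the fifth most frequent miR-30 sequence of the TDRKH IPs. Its letters are shown with a longer read whose first 18 bases are the same, in capitals there.
named miR-30b-3p: ttcagttgatgtaaacct
piRNA cluster read: TTCAGTTGATGTAAACCTgagaagat
In all, 15 longer sequences began with these 18 bases. They were named for overlapping piRNA clusters of chromosome 6, at chr6:110178897-110333441 and chr6:110174004-110336024 in the files' coordinates, whose build the files and labels do not name. They had 29 and 29 reads in the TDRKH IPs, against 8 and 3 in the inputs, or 2.60 and 2.62 RPM against 7.41 and 2.22 RPM, so the groups overlapped once scaled. The 18-nt read itself was at 0.628 and 0.633 RPM in the TDRKH IPs, against 0 and 1.48 RPM in the inputs, which overlapped too. It was the only miR-30 sequence with which longer sequences of another name began. Longer sequences that hold a miR-30 sequence further inside were not searched for. By best match miR-30b had 3 and 4 reads in the TDRKH IPs, against 28 and 34 in the inputs, and its log2 change became -6.25 ± 0.37, a larger change than the -4.77 found by name.

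By best match, miR-30a had 0.898 and 1.63 RPM in the TDRKH IPs, against 64.4 and 72.0 RPM in the inputs, and changed by -5.75 ± 0.27. The changes were -6.75 ± 0.11 for miR-30d and -5.73 ± 0.22 for miR-30e, all on the log2 scale. All 5 members that could be tested were lower, beside 57.8% of the names in that fit. Only miR-30d reached the filter's 1.61 RPM in both TDRKH IPs by best match. The others entered with the help of the inputs, so this count does not support the direction.

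A smaller drop remained when miR-30 was measured within the microRNAs. The family made up 2.07% and 2.19% of bovine microRNA reads in the TDRKH IPs, against 6.90% and 7.19% in the inputs. With the total of bovine microRNA reads as library size, its log2 change was -1.72 ± 0.23 (adjusted p = 2.61e-13, edgeR), and 4 of 6 members by name were lower, where 47.8% of the bovine microRNAs tested were (64 of 134). The 4 were miR-30c (-2.56), miR-30d (-1.99), miR-30e (-0.83) and miR-30f (adjusted p = 0.0324, edgeR). miR-30a was at -0.81 (adjusted p = 0.0571) and miR-30b at -0.05 (adjusted p = 0.922), both on the log2 scale. With both the best match and this library size, 5 of 5 members tested were lower, miR-30b at -1.57 ± 0.61, where 48.9% of bovine microRNAs were.

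That ratio depends on what counts as a microRNA read. Of all bovine microRNA reads, 60.6% and 59.7% carried a mismatch note in the TDRKH IPs, against 47.5% and 41.4% in the inputs. Outside miR-30, 61.5% and 60.6% of bovine microRNA reads carried a note in the TDRKH IPs, against 47.9% and 42.4% in the inputs. Of reads without a note, miR-30 made up 4.46% and 4.46% in the TDRKH IPs, against 7.66% and 8.77% in the inputs. In a fit of those reads alone, the family changed by -0.88 ± 0.26 (log2; adjusted p = 0.000908, edgeR). Only miR-30d was then lower among the 5 members tested, at -1.04 ± 0.27, where 29.8% of bovine microRNAs were; miR-30e was at 0.02 ± 0.39 and miR-30a at -0.06 ± 0.43.

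The comparison families were also at lower levels in the TDRKH IP. The summed let-7 family and miR-98 were at 76.6 and 121 RPM in the TDRKH IPs, against 4718 and 4372 RPM in the inputs, 46.1 times as high in the input by means. The summed miR-17 to 92 clusters and their paralogs were 67.5 times as high in the input, and the summed miR-10, miR-100 and miR-125 families 83.2 times, beside 88.5 times for miR-30. Whether these ratios differ from that of miR-30 was not tested. Among 153 bovine microRNAs outside the family, the pattern over the 4 libraries was most like that of the family sum for miR-9, miR-148a and miR-10a. The Euclidean distances were 0.09, 0.29 and 0.30 on centred log2(RPM + 0.5). miR-9 was at 1.62 and 1.99 RPM in the TDRKH IPs, against 190 and 203 RPM in the inputs.

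miR-30d held a smaller share of the family in the TDRKH IP. By name it made up 67.3% and 67.1% of miR-30 reads in the TDRKH IPs, against 80.6% and 82.3% in the inputs. The Wilson 95% intervals were 59.5% to 74.8% and 60.2% to 73.9% in the TDRKH IPs, against 78.4% to 82.6% and 80.4% to 84.0% in the inputs. These intervals cover counting error only, since PCR copies are not separate molecules. The difference was -14.3 points by name and -9.35 points by best match, with 72.1% and 71.0% in the TDRKH IPs, against 80.1% and 81.7% in the inputs. With 2 libraries against 2, the exact two-sided permutation test gave p = 0.333, the smallest value this design allows, for this share and for every other share below whose groups did not overlap.

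**Figure D2:**
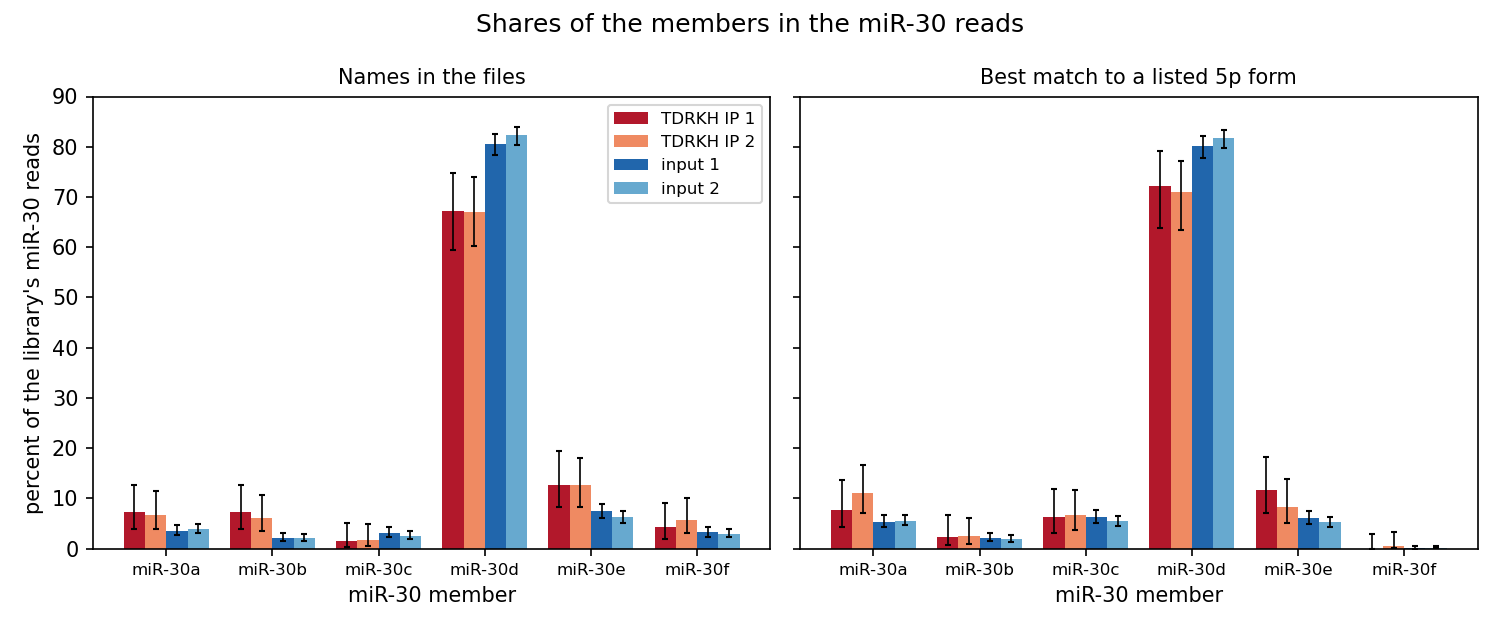
Percent of each library's miR-30 reads held by each member, by the names in the files (left) and by best match (right), with Wilson 95% intervals as error bars. miR-30d stands at 67.3% and 67.1% in the TDRKH IPs, against 80.6% and 82.3% in the inputs on the left, and the TDRKH IP bars of miR-30a and miR-30e are higher than the input bars in both panels.

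The other members' shares depended on the assignment. miR-30e held 12.6% and 12.6% of miR-30 reads in the TDRKH IPs by name, against 7.42% and 6.25% in the inputs, and by best match 11.6% and 8.23%, against 6.03% and 5.24%. miR-30a held 7.19% and 6.74% in the TDRKH IPs by name, against 3.45% and 3.90% in the inputs, and by best match 9.36 ± 2.28% in the TDRKH IP, against 5.43 ± 0.178% in the input (mean and SD, n = 2 each), with no overlap. miR-30b held 7.19% and 6.18% in the TDRKH IPs by name, against 2.08% and 2.04% in the inputs, but 2.33% and 2.44% against 2.14% and 1.94% by best match. miR-30c held 1.44% and 1.69% in the TDRKH IPs by name, against 3.18% and 2.60% in the inputs, and by best match its groups overlapped at 6.20% and 6.71% in the TDRKH IPs and 6.33% and 5.41% in the inputs.

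The main length of miR-30 was 24 nt in both groups. Reads of 24 nt made up 56.1% and 57.3% in the TDRKH IPs, against 58.2% and 59.2% in the inputs, and the mean length was 23.47 and 23.30 nt in the TDRKH IPs, against 23.50 and 23.54 nt in the inputs. Reads of 23 nt made up 14.4% and 16.9% in the TDRKH IPs, against 22.2% and 23.4% in the inputs. Reads of 18 nt made up 5.04% and 5.62% in the TDRKH IPs, against 0% and 0.226% in the inputs, and the 18-nt sequence shown above supplied 7 of 7 and 7 of 10 of them in the TDRKH IPs. With 1320 reads, the 0 of input 1 had an upper Wilson bound of 0.290%.

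The leading sequences of miR-30d show the same ends. The listed 24-nt form had 52 and 70 reads in the TDRKH IPs, against 344 and 631 in the inputs, and was the most frequent miR-30 sequence of all 4 libraries. The form 1 base shorter had 15 and 16 reads in the TDRKH IPs, against 145 and 225 in the inputs, and that 2 bases shorter had 2 and 6 reads, against 27 and 60.
miR-30d, 23 nt: tGTAAACAtccccgactggaagc
miR-30d, 22 nt: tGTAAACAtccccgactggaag
The 6 listed forms together made up 52.5% and 51.1% of miR-30 reads in the TDRKH IPs, against 31.6% and 43.4% in the inputs. Next in the TDRKH IPs came the listed forms of miR-30a, with 8 and 11 reads, against 24 and 54 in the inputs, and of miR-30e, with 10 and 8 reads, against 31 and 49. The listed miR-30b form had 2 and 2 reads in the TDRKH IPs, against 12 and 15 in the inputs, and that of miR-30c 1 and 0 reads, against 6 and 16. Leading sequences of the members that are not described here had at most 3 reads in any TDRKH IP.

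Most 5p reads began at the first base of the listed form, which keeps the seed. They did so for 92.2% and 93.3% of 5p reads in the TDRKH IPs, against 96.3% and 96.4% in the inputs. A later start was found for 7.75% and 6.71% in the TDRKH IPs, against 3.28% and 3.59% in the inputs, from 10 and 11 reads in the TDRKH IPs. At the other end, among reads from base 1 without a mismatch, 17.7% and 22.5% ended before the listed end in the TDRKH IPs, against 31.5% and 28.7% in the inputs. An end past it was found for 17.7% and 13.4% in the TDRKH IPs, against 12.2% and 10.1% in the inputs. This difference of 4.42 points was 2.26 without TDRKH IP 1 and 6.58 without TDRKH IP 2, and it turned to -3.93 points with each distinct sequence counted once. The extended reads numbered 20 and 19 in the TDRKH IPs, against 90 and 126 in the inputs, and a single T was the most frequent addition in all 4 libraries, at 60% and 57.9% in the TDRKH IPs, against 62.2% and 57.1% in the inputs. Much of that T is the 24-nt miR-30c form, which passes the shorter listed miR-30c by 1 base.

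For miR-30d alone, 14.5% and 8.82% of such reads passed the listed end in the TDRKH IPs, against 6.06% and 6.02% in the inputs. The first base past the end was T in 9 of 12 and 5 of 9 reads in the TDRKH IPs, against 12 of 35 and 32 of 61 in the inputs. It was A in 0 and 2 reads in the TDRKH IPs, against 16 and 29 in the inputs. The notes of 5 sequences give G as the precursor base at this place, so A and T there differ from the precursor as annotated. With 12 and 9 reads the TDRKH IP shares are imprecise: the Wilson interval of the T share was 46.8% to 91.1% in TDRKH IP 1 and 26.7% to 81.1% in TDRKH IP 2, against 20.8% to 50.8% and 40.2% to 64.5% in the inputs.

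**Figure D3:**
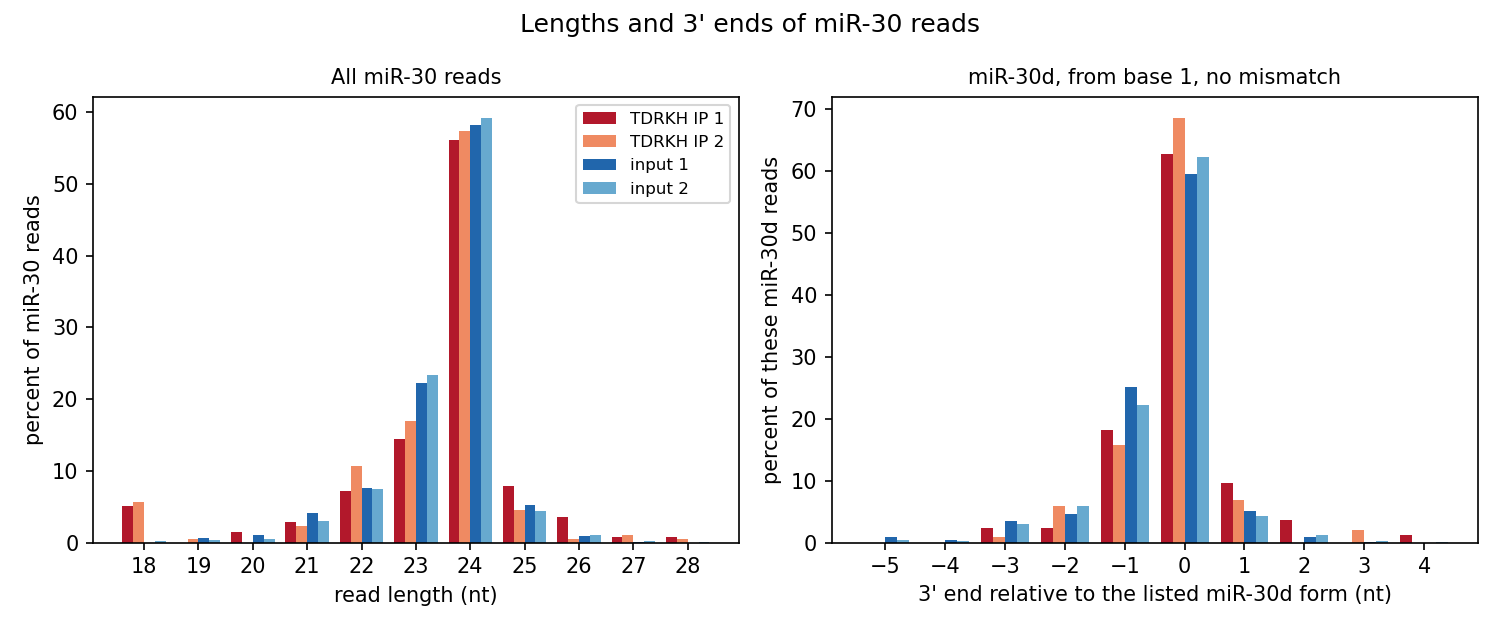
Left, percent of miR-30 reads of each length from 18 to 28 nt. Right, percent of miR-30d reads from base 1 without mismatch by the distance of their 3' end from the listed end, in nt. Each bar is 1 library; 24 nt and the listed end lead in all 4 libraries, 18 nt is at 5.04% and 5.62% in the TDRKH IPs, against 0% and 0.226% in the inputs, and ends 1 nt short are more frequent in the inputs.

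Few 5p reads of the TDRKH IPs departed from the listed bases. A mismatch was present in 5.43% and 6.71% of 5p reads in the TDRKH IPs, against 41.0% and 25.7% in the inputs. For miR-30d reads of 22 nt or more from base 1 the share was 6.90% and 5.61% in the TDRKH IPs, against 41.5% and 25.9% in the inputs. These were 6 and 6 reads in the TDRKH IPs, against 391 and 341 in the inputs. Changes at base 12 are not among them, because such reads either have the miR-30a sequence or match miR-30a and miR-30d equally well. The reads of 22 nt or more tied between these 2 members numbered 0 and 0 in the TDRKH IPs, against 17 and 24 in the inputs. C13T is not among them either, because such reads match miR-30d and miR-30e equally well. Its 24-nt form had 0 and 0 reads in the TDRKH IPs, against 8 and 5 in the inputs. Its 23-nt form had 0 and 1 reads in the TDRKH IPs, against 2 and 3 in the inputs. Among the changes counted, the most frequent were G14T, with 0 and 1 reads in the TDRKH IPs, against 42 and 27 in the inputs, and A21G, with 0 and 0 reads, against 32 and 31. At the first base the most frequent change was T1A, with 0 and 0 reads in the TDRKH IPs, against 21 and 28 in the inputs.

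The higher mismatch share of the inputs was not limited to miR-30. Reads of piRNA clusters carried a note in 30.9% and 30.9% of cases in the TDRKH IPs, against 51.7% and 44.8% in the inputs. Bovine microRNAs outside miR-30 went the other way, as given above. Input 1 stood above input 2 both in miR-30 and in piRNA clusters. The part of this difference between the libraries in the miR-30 mismatches was not tested.

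**Figure D4:**
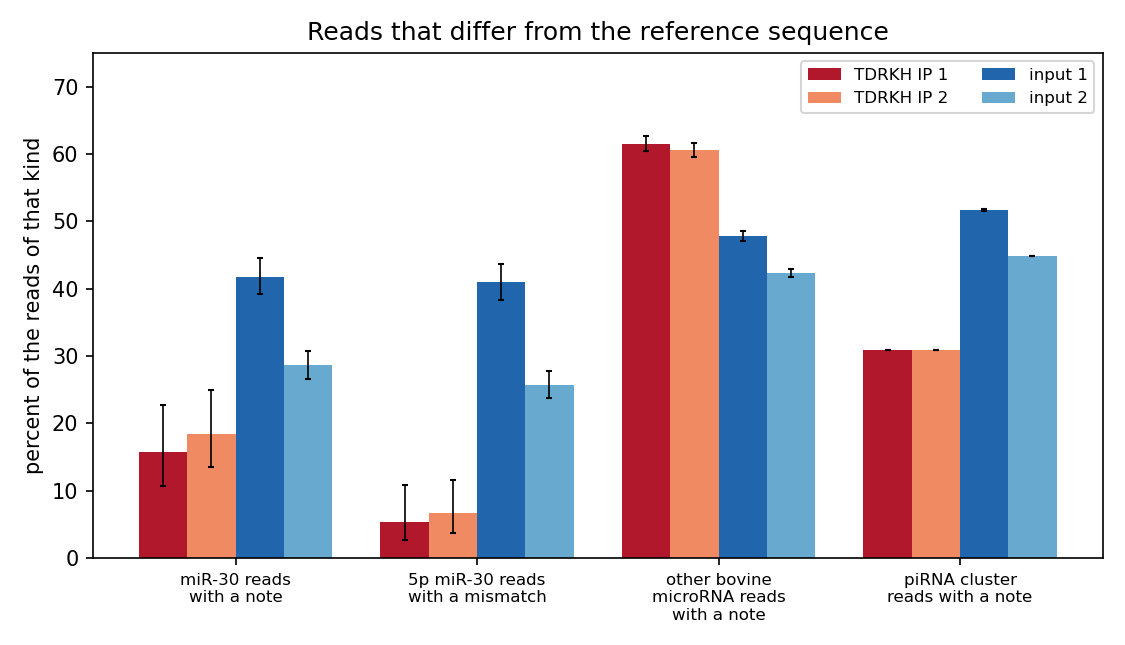
Percent of reads with a mismatch note, for all miR-30 reads, other bovine microRNAs and piRNA clusters, with Wilson 95% intervals. For 5p miR-30 reads the bars give a mismatch to the best listed form instead. A read with a note can still fit the listed form of another member without a mismatch. The TDRKH IP bars are below the input bars for miR-30 and for piRNA clusters and above them for other bovine microRNAs.

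Single sequences were tested where they reached 10 RPM in 2 libraries, which the miR-30 sequences did through the inputs alone. Of 13 such sequences, 9 placed on miR-30d, all 13 were lower, where 19.9% of all sequences tested were; since only the inputs reached the limit, this count does not support the direction. The 24-nt miR-30d form changed by -6.15 ± 0.31 and the 23-nt form by -6.73 ± 0.36 on the log2 scale. 3 of the 13 carried a mismatch, and 2 of these had no read in either TDRKH IP, chosen for mention after their values were seen. The one with A21G had 21 and 19 reads in the inputs, and the one with T1A 13 and 14.

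Reads on no 5p form were few. They numbered 10 and 14 in the TDRKH IPs, against 9 and 11 in the inputs, or 7.19% and 7.87% of miR-30 reads in the TDRKH IPs, against 0.682% and 0.623% in the inputs. Without the 18-nt sequence shown above the shares were 2.27% and 4.09% in the TDRKH IPs, from 3 and 7 reads, against 0.682% and 0.510% in the inputs. These are not 3p shares either, since some input reads began like the listed miR-30d form but failed the limits of placement. A 23-nt sequence of this kind had 0 and 0 reads in the TDRKH IPs, against 1 and 2 in the inputs. Of all sequences on no 5p form, the most frequent beside the 18-nt sequence was named miR-30e-3p without a note.
miR-30e-3p: ctttcagtcggatgtttacagc
It had 1 and 1 reads in the TDRKH IPs, against 1 and 3 in the inputs, so the 3p strand was at or under the floor of 3 reads in each library for this form.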

How the data were processed

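Small RNAs of GV stage bovine oocytes were sequenced single-end after TRIZOL extraction and NEXTflex library preparation, per the labels. The deposited files list each sequence with its read count and the names given by the unitas annotation, as the file names state; the files and labels name neither its settings nor a genome build. Totals cover annotated reads, because no sequence was listed without a name. The counts deposited by the authors were used unnormalized. The members, gene lists and alternatives were chosen with earlier results of these data known.

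Bracketed notes, arms and copy numbers were stripped from microRNA names, and reads of a sequence with more than 1 name were split in equal parts, with totals rounded for the tests. TDRKH IP was compared with input over all names or sequences by the quasi-likelihood test of edgeR (version 4.0.16, under R 4.3.3), with listed reads as library size, filterByExpr (for sequences 10 RPM in 2 libraries) and Benjamini-Hochberg adjustment at 0.05. Standard errors were derived from the change and its F statistic. Shares have Wilson 95% intervals, and 2 against 2 libraries an exact permutation test. The scripts were tested on simulated data. Named were all members and arm names, the 3 leading sequences of each member and the 5 leading ones of the TDRKH IPs, and the 3 bovine microRNAs of most similar pattern. Alternatives included DESeq2 1.42.0, TMM factors, other library sizes and filters, and leaving out each library. Replicates of a group differed by more than sampling noise (chi-square per degree of freedom 3.46 for the TDRKH IPs and 2.4 for the inputs). Each library was counted as 1 replicate, but this spread may be technical and does not show separate oocytes as source.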

Additional observations from a re-analysis of the deposited data

How the results depend on the processing

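The family sum stayed lower under all 17 alternatives, between -6.65 and -0.88 on the log2 scale; leaving out 1 library gave -6.65 to -6.29. The median of all names was -2.38, but -1.09 with TMM factors, -0.33 with DESeq2 and 4.45 with the microRNA total. Without 1 library the members changed by -7.46 (miR-30c) to -4.69 (miR-30b). With the bovine microRNA total as library size 4 of 6 members were lower, where 47.8% of bovine microRNAs were. With reads and total restricted to those without a note 1 of 5 was lower, where 29.8% of bovine microRNAs were. There miR-30e reversed to 0.02 and miR-30c was at -1.44 (adjusted p = 0.0665), miR-30b at -0.56. Arm names changed by -8.31 (miR-30c) to -4.18 (miR-30b-3p) without 1 library. With the microRNA total 5 of 8 arm names were lower, and miR-30b-3p reversed to 0.44. Of all 5429 names tested in that fit 354 were lower, and their median log2 change was 4.41. The share among bovine microRNA arm names alone was not counted, so 5 of 8 has no like background. Sequences lower numbered 66 of 66 at a minimum of 1 RPM, where 19.6% of all sequences were. Only 2 of the 66 reached it in both TDRKH IPs, so their direction was largely fixed by the minimum. With either TDRKH IP left out, the 13 sequences of the 10 RPM limit changed by -9.24 to -4.76, fixed in direction by that limit. Without either input none reached the minimum, so no value exists. Same-numbered libraries did not deviate together (correlation 0.0099 over the 5355 names tested). The replicate block gave -6.46 for the family sum and changed no call. The miR-30d share difference (-14.3 points) moved to -15.2 with single names, -17.9 with each sequence counted once, -17.0 with names of any species, -8.86 without noted names and -9.35 by best match, and was -15.1 to -13.4 without 1 library. The 3p share difference by name (-14.4 points) was -5.29 with any species and -20.2 to -8.47 without 1 library. The share of reads on no listed 5p form differed by 6.88 points. That is not a 3p share, since the 18-nt sequence shown above supplied 7 and 7 of those reads in the TDRKH IPs. The 24-nt difference (-1.98) was -17.7 with each sequence counted once, -11.9 with any species, -1.17 within 18 to 26 nt, and -2.57 to -1.39 without 1 library. The start at base 1 (-3.58) was -14.7 and the extended ends (4.42) -3.93 with each sequence counted once; without 1 library they were -4.10 to -3.05 and 2.26 to 6.58. The causes were not tested, and 139 and 178 TDRKH IP reads limit every share.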

Other observations

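Sequences named only for miR-30 of other species were not counted as members. They had 45 and 55 reads in the TDRKH IPs, against 5 and 9 in the inputs, over 24 distinct sequences. Scaled to depth these were 4.04 and 4.97 RPM in the TDRKH IPs, against 4.63 and 6.65 RPM in the inputs, and the groups overlapped. Of the 454 miR-30 sequences, 263 had 1 read over all libraries, 17 were present in both TDRKH IPs, 125 in both inputs and 15 in all 4 libraries.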
